A study of Mus musculus with 6 samples.

Results

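Abl2, Tmem245, Rab11fip4, Gabpb2, Eif4ebp2, Fbxo41 and Cbl are 7 protein-coding genes of the mouse whose messenger RNAs give many PIWI-interacting RNAs (piRNAs) in cultured spermatogonial stem cells. They were picked for their reads in the immunoprecipitate of Mili, so the immunoprecipitate levels are given as a description. Their reads were those of 25 to 31 nt that matched, exactly and in the sense direction, transcripts of 1 gene and of no other gene in GENCODE M21. By that count they ranked 3, 4, 5, 6, 9, 11 and 12 among the 16777 protein-coding genes with at least 1 such read in any library, and 25165 genes of all kinds had one. Cbl, the last inside the pick, had 39893 immunoprecipitate reads, and Scd2, at rank 13 just outside it, had 36547.

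The study asked what the small RNA methyltransferase Hen1 does in animals. All libraries came from germ-line stem cells of a male mouse of 15 days. The growth protocol describes the mouse as an F1 between C57BL/6 and DBA2 that carried actin-EGFP, whereas the strain label of the samples reads C57BL/6, and the sources do not settle which holds. The cells grew on mouse embryonic fibroblast feeders. There were 6 small RNA libraries with 1 per group. Wild type and Hen1 knockout cells were each sequenced untreated and after sodium periodate (NaIO4), Mili knockout cells were sequenced untreated, and RNA bound to Mili was taken from wild type cells. The knockouts were made with Cas9 and a guide RNA from picked single colonies, so that each knockout library may stand for 1 clone. Small RNA reads do not measure the Hen1 or Mili messenger RNA, so the knockout labels were not checked on the targeted genes. With 1 library per group there was no replicate check and no test. Every ratio compares libraries, not conditions, and every interval is a 95% interval that covers counting error alone, because reads amplified by PCR were not tagged as single molecules.

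Piwi proteins such as Mili carry piRNAs of the male germ line, where the best known targets are transposons. In animals Hen1 adds a methyl group to the 2′-hydroxyl of the last base of a piRNA after its 3′ end has been trimmed. Periodate oxidises a 3′ end that has both hydroxyls free and thereby keeps it out of the library, whereas a methylated end is spared. Many piRNAs made outside transposons come from the 3′ untranslated regions (UTRs) of messenger RNAs, and most piRNAs bound to Mili begin with U, read as T here.

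The members code for unrelated proteins. Abl2 is a non-receptor tyrosine kinase, and Cbl is a ubiquitin ligase that acts on receptor tyrosine kinases. Rab11fip4 binds the small GTPase Rab11 in endosome recycling. Gabpb2 is a beta subunit of the Ets factor GABP, and Eif4ebp2 binds the cap-binding protein eIF4E and holds back translation. Fbxo41 is an F-box protein, a class that brings substrates to ubiquitin ligases, and Tmem245 is a membrane protein.

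The genes lie on different chromosomes of mm10 (GRCm38), and most of each longest coding transcript is 3′ UTR. Abl2 is at chr1:156558786-156649568 with a 3′ UTR of 6852 nt, Tmem245 at chr4:56866923-56947437 with 13324 nt, and Rab11fip4 at chr11:79591212-79698023 with 5184 nt. Gabpb2 is at chr3:95181766-95217916 with 6904 nt, Eif4ebp2 at chr10:61428491-61452661 with 5306 nt, Fbxo41 at chr6:85469574-85502994 with 3448 nt, and Cbl at chr9:44142976-44234049 with 8469 nt. The 3′ UTR is shortest in Fbxo41 and longest in Tmem245.

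The most abundant piRNA of each gene in the immunoprecipitate is shown because its start, position and length carry the patterns described below. Capitals mark a T at position 1 and an A at position 10, counted from the 5′ end. All are on mm10 (GRCm38) and lie in the last exon of the longest coding transcript, in the 3′ UTR.
Abl2: Tagagatctgcactttgtagttgaag
Tmem245: Tcttccgaaggtccagagttcagatccc
Rab11fip4: Tgacatcgtttagctgctctgctaaga
Gabpb2: Taagagaaagaactgtagctgggcagt
Eif4ebp2: TcactgaacAgcggtctgcacagagcggc
Fbxo41: Taaccgaattcctctgctcagaacgtg
Cbl: Tgagtttcctttcctctgacccagaat

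All 7 began with T, and Eif4ebp2 alone among these 7 sequences also had A at position 10. The Abl2 sequence lay at chr1:156646324-156646349 on the plus strand, 3608 nt into the 3′ UTR in exon 13, with 2047 immunoprecipitate reads. The Rab11fip4 sequence lay at chr11:79696711-79696737 on the plus strand, 3872 nt past the stop codon in exon 15, with 4015 reads. The Gabpb2 sequence was at chr3:95183958-95183984 on the minus strand, 4686 nt past the stop codon in exon 10, with 2967 reads. That of Eif4ebp2 was at chr10:61431595-61431623 on the minus strand, 2174 nt past the stop codon in exon 3, with 835 reads. The Fbxo41 sequence was at chr6:85471957-85471983 on the minus strand, 1043 nt past the stop codon in exon 14, with 3589 reads. Cbl had 2138 reads of a sequence at chr9:44144630-44144656 on the minus strand, 6789 nt past the stop codon in exon 16. None of the 7 sequences had a read in the Mili knockout library.

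Tmem245 differed from the other members in how safely its reads could be assigned. Its leading sequence, at chr4:56875806-56875833 on the minus strand and 4414 nt past the stop codon in exon 18, had 6452 immunoprecipitate reads, which was 11.3% of the gene's reads there. It differed by the single change G23A, counted from the 5′ end of the read, from a sequence with 184820 immunoprecipitate reads that matched 47 genes exactly. The changed base is in capitals.
Tmem245 read: tcttccgaaggtccagagttcaGatccc
multi-gene read: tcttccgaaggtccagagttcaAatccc

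Of the Tmem245 reads, 32.2% in the immunoprecipitate and 21.2% in untreated wild type lay within 1 mismatch of another gene. The same share was at most 0.279% in untreated wild type for each of the other 6 genes. Introns and unannotated sequence were not read here, so other genomic copies could not be checked. Without those reads Tmem245 kept 38886 immunoprecipitate reads and 6316 in untreated wild type. Its ratio of immunoprecipitate to untreated wild type was then 1.79 in place of 2.07, and the other ratios given below for Tmem245 kept their direction.

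Levels are given as reads per 1000000 reads of 18 to 35 nt (rpm). Abl2 gave 1356 rpm in untreated wild type and 2632 in wild type after NaIO4, 2474 in Hen1 knockout cells untreated and 718 after NaIO4, 0.208 without Mili and 2417 in the immunoprecipitate. Tmem245 had 1095, 2056, 1262, 338, 2.08 and 2272 in the same order of libraries. For Rab11fip4 the levels were 1077, 1934, 1113, 261, 0.624 and 2189. All 3 genes were lowest in the Mili knockout and next lowest in the Hen1 knockout after NaIO4.

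Gabpb2 gave 881, 1842, 1403, 443, 0.208 and 2134 rpm in that order. Eif4ebp2 had 617, 1215, 1056, 272, 0.416 and 1817. For Fbxo41 the levels were 801, 1440, 1103, 306, 1.46 and 1740. Cbl reached 774, 1547, 1484, 398, 1.04 and 1581. Summed, the 7 genes gave 6600 rpm in untreated wild type, which was 1.56% of its piRNA-like reads, and 6.03 in the Mili knockout.

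**Figure D1:**
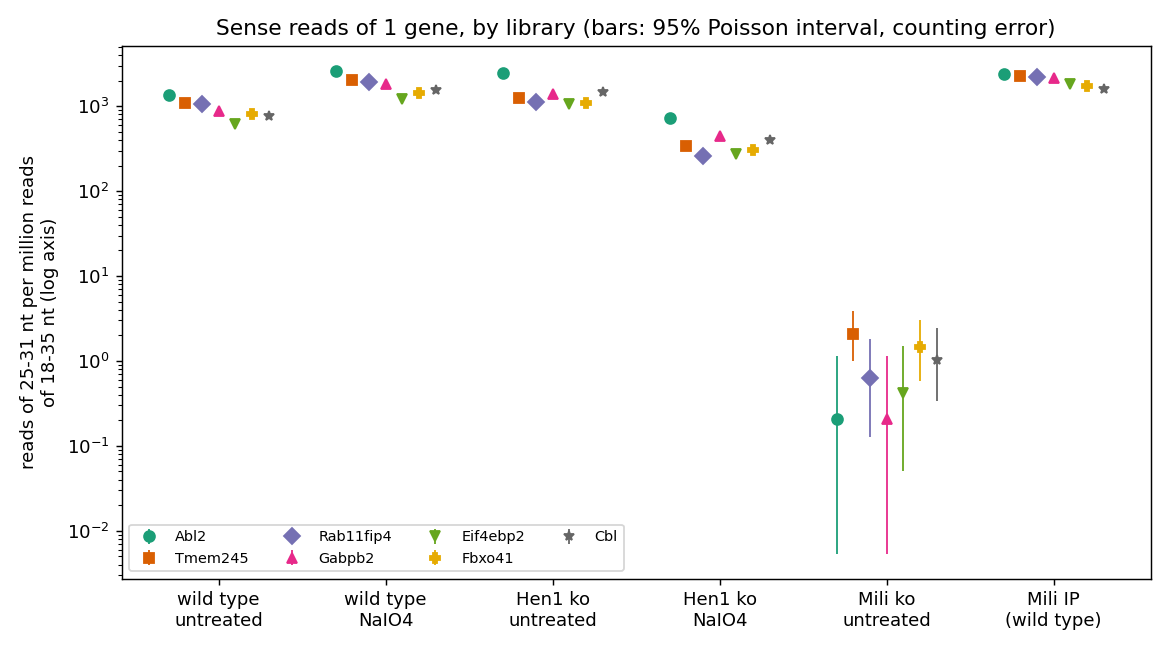
Sense reads of 25 to 31 nt of each gene (symbols) in the 6 libraries, in rpm on a log axis, with 95% Poisson intervals for counting error. All 7 genes sit between 617 and 2632 in both wild type libraries and in the untreated Hen1 knockout, between 261 and 718 in the Hen1 knockout after NaIO4, and at or below 2.08 in the Mili knockout.

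Per kilobase of the longest coding transcript the genes differed less than 3-fold. In untreated wild type Rab11fip4 was highest at 150 rpm per kb, followed by Abl2 at 134, Fbxo41 at 122, Eif4ebp2 at 107, Gabpb2 at 101.6, Tmem245 at 68.5 and Cbl at 68.0. The intervals of Eif4ebp2 (104 to 110) and Gabpb2 (99.1 to 104) touched, and those of Tmem245 and Cbl overlapped, so that these neighbours could not be ordered. In the immunoprecipitate Eif4ebp2 led at 314 and Cbl was lowest at 139. Transcript amounts were not measured here, so more transcript and more piRNA per transcript cannot be told apart.

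The libraries held 2604390 to 25240941 reads of 18 to 35 nt, with the fewest in the Hen1 knockout after NaIO4. Reads of piRNA size that matched no structural or microRNA gene annotated in GENCODE M21 are called piRNA-like. They made up 13.1% of the Mili knockout library and between 23.5% and 73.8% of the others. Genes outside that annotation were not screened, so fragments of any transfer RNA missing from it stayed in this count. The share of such fragments was not tested, and every ratio per piRNA-like read rests on this count. The germ-line microRNAs Mir741, Mir871 and Mir470 were at 31949, 29802 and 12003 rpm in untreated wild type, while the fibroblast microRNAs Mir199a-1, Mir143 and Mir214 were at 982, 412 and 20.9. In the untreated Hen1 knockout the same germ-line microRNAs were lower, at 11483, 10004 and 4135, while Mir199a-1 was at 1009, Mir143 at 339 and Mir214 at 27.3. Other marker microRNAs did not all fall between these untreated libraries. Mir293 went from 144.90 to 85.963, Mir295 from 119.77 to 59.986 and Mir21a from 1049.0 to 896.89. Mir221 rose from 127.96 to 145.01, Mir222 from 111.99 to 118.52 and Mir146 from 224.52 to 235.33. In the Mili knockout library Mir741 stood at 58287 and Mir199a-1 at 3068. The part of these differences, and of feeder cells, in the results on the members was not tested.

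NaIO4 treatment went with a higher rpm of every member in wild type but a lower one without Hen1. Summed over the 7 genes, the ratio of treated to untreated was 1.92 (1.90 to 1.94) in wild type. In the Hen1 knockout it was 0.276 (0.270 to 0.283), a level 3.62-fold lower after treatment. The ratio in the knockout was 6.94-fold lower than that in wild type (6.76 to 7.12). These directions are per read of the library: per microRNA read the ratio in wild type was 25.9 and that in the Hen1 knockout 0.837, and per piRNA-like read they were 1.24 and 0.703. The microRNA reads themselves fell after NaIO4. In wild type they were 1398274 of 7322408 reads of 18 to 35 nt untreated and 145746 of 10282416 treated. In the Hen1 knockout they were 850172 of 11702714 and 62512 of 2604390. Ratios per microRNA read hold this fall as well as any change of the members. Counting each distinct sequence once ended the difference, with ratios of 1.05 and 1.03, but that count depends on depth.

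Among the members Gabpb2, the GABP subunit, had the highest ratio in wild type at 2.09 (2.03 to 2.15). It was the 1 member of 7 that was at least 2-fold higher after NaIO4, against 28.8% of the 1275 genes with at least 200 untreated wild type reads. Cbl fell just short at 2.00, and Rab11fip4 and Fbxo41 were lowest at 1.80 each. In the Hen1 knockout all 7 members were at least 2-fold lower, as were 97.6% of the 2228 genes compared. The ratio there ran from 0.234 (0.217 to 0.253) for Rab11fip4 to 0.316 (0.297 to 0.335) for Gabpb2. For the ratio of ratios, 7 of 7 members and 98.8% of 1258 genes were at least 2-fold lower in the knockout. The members ran from 0.130 for Rab11fip4 to 0.154 for Fbxo41, beside a median of 0.147 over all genes compared. These counts depend on the denominator. Per piRNA-like read no member passed 2-fold in any of the 3 comparisons, with ratios of 1.16 to 1.35 in wild type, 0.595 to 0.802 in the knockout and 0.514 to 0.608 for the ratio of ratios. Per microRNA read, a count that itself fell after NaIO4, all 7 were at least 2-fold higher in wild type. By that count none was 2-fold lower in the knockout (0.709 to 0.955). Per read of the library all members lay within the middle 50% of other genes, apart from Gabpb2 in wild type, which lay above it.

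**Figure D2:**
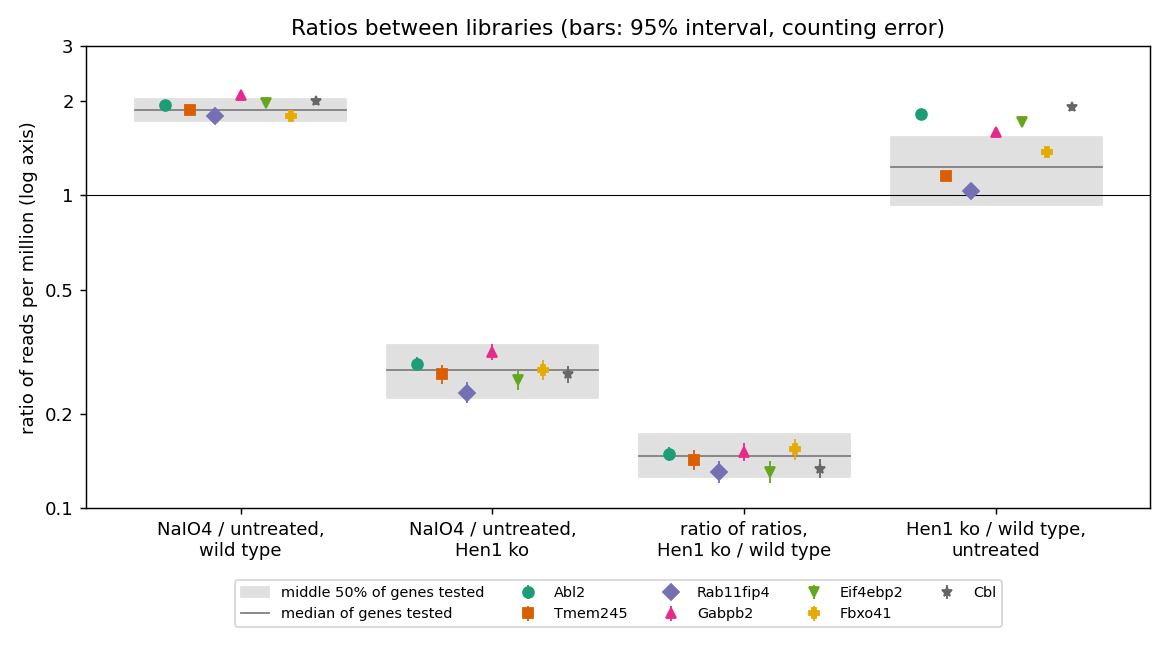
Ratios of rpm between libraries for each gene (symbols, 95% intervals for counting error) on a log axis, beside the median and the middle 50% of all genes compared (grey). The NaIO4 ratios of the 7 genes sit between 1.80 and 2.09 in wild type and between 0.234 and 0.316 in the Hen1 knockout, and the Hen1 knockout to wild type ratios spread from 1.03 to 1.92.

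Without treatment the Hen1 knockout library held more rpm of the 7 genes than the wild type library, by 1.50 (1.48 to 1.52) when summed. Here the members differed among themselves. Cbl was at 1.92 (1.86 to 1.98), Abl2 at 1.82 (1.78 to 1.87), Eif4ebp2 at 1.71 and Gabpb2 at 1.59, all above the upper quartile of 1.53 over 1275 genes. Fbxo41 was at 1.38, Tmem245 at 1.15 and Rab11fip4 at 1.03 (1.01 to 1.06), beside a median of 1.23 over all genes. None of the 7 was at least 2-fold higher, against 6.82% of the genes compared, and none was at least 2-fold lower, against 2.20%. Per microRNA read all 7 were at least 2-fold higher, from 2.72 to 5.04, and with up to 1 mismatch Cbl was, at 2.11. Over distinct sequences all but Cbl (1.02) were below 1, with Rab11fip4 lowest at 0.694. Per piRNA-like read the sum was at 1.06, and Fbxo41, Tmem245 and Rab11fip4 turned to 0.976, 0.817 and 0.733.

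The Mili knockout library held 29 reads of the 7 genes together, against 48327 in untreated wild type. The level was 1094-fold lower (762 to 1634). Tmem245 had 10 of these reads, Fbxo41 had 7, Cbl 5, Rab11fip4 3, Eif4ebp2 2, and Abl2 and Gabpb2 1 each. All 7 members were at least 100-fold lower, as were 66.8% of the 1275 genes, and 98.7% of these genes were at least 2-fold lower. The genes compared could have as few as 200 untreated wild type reads, where few Mili knockout reads decide the 100-fold mark. The members' ratios, 1.53e-04 to 0.00190, lay below the median of 0.00333 over these genes. A lower ratio was found in 40.5% (Abl2) to 44.4% (Tmem245) of them. The lower quartile was 0, so this rank depends on genes without any Mili knockout read. With up to 1 mismatch allowed, Tmem245 no longer met the 100-fold mark, at a ratio of 0.118 with 745 reads of 1 mismatch in the Mili knockout, and the summed ratio was 0.0221. Such reads matched no gene exactly in the sense direction, but genes outside the 7 were not searched with 1 mismatch. The 745 reads are therefore not shown to come from Tmem245. Over distinct sequences Tmem245 (0.0138), Fbxo41 (0.0160) and Cbl (0.0183) did not meet the 100-fold mark. With at most 3 reads in 4 of the genes, single ratios are imprecise: that of Abl2 was 1.53e-04 (3.88e-06 to 8.55e-04). The 29 reads that were left were 15 distinct sequences. Of these reads 12 began with T and 18 lay in a 3′ UTR, but copies of 1 sequence are not independent. Tmem245 gave 7 of the 11 reads in coding parts, and 3 of its 10 reads lay within 1 mismatch of another gene. Whether the reads that were left differ in kind was not tested. The Hen1 knockout and the Mili knockout were both set against the same untreated wild type library.

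In the immunoprecipitate the members were 1.78-fold (Abl2) to 2.95-fold (Eif4ebp2) above untreated wild type, and 6 of 7 were at least 2-fold higher. Of the 1275 genes compared, 56.0% were. Per piRNA-like read the members ran from 1.02 to 1.69, so that none was 2-fold higher, and over distinct sequences all 7 were below 1, from 0.543 to 0.699. Without its reads near other genes Tmem245 was at 1.79. The members were picked on this library, so the count supports nothing further.

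Nearly all reads of the members came from the 3′ UTR. By the position of the 5′ end, 96.6% (96.4 to 96.7) of the reads in untreated wild type and 96.5% in the immunoprecipitate fell in the 3′ UTR, which made up 75.4% of the summed transcript length. The share in untreated wild type was 99.5% for Cbl, 99.2% for Abl2, 99.2% for Tmem245, 97.5% for Gabpb2, 95.1% for Eif4ebp2, 93.0% for Rab11fip4 and 90.5% for Fbxo41. Over 1130 genes with at least 1000 immunoprecipitate reads the median share was 87.4%. Their median 3′ UTR was 62.5% of the length, against 74.5% for the members. The members' share was 97.1% in the untreated Hen1 knockout, and NaIO4-treated cells had 97.1% with Hen1 and 97.2% without it.

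The coding part held 9.46% of the Fbxo41 reads and 7.01% of the Rab11fip4 reads in untreated wild type, and at most 4.34% in the other 5 genes. Abl2, Tmem245, Rab11fip4, Fbxo41 and Cbl had no 5′ UTR read in untreated wild type. In the immunoprecipitate 1.33% of the Gabpb2 reads began in its 5′ UTR of 512 nt and 1.27% of the Eif4ebp2 reads in one of 115 nt. With 1 sequence kept per 5′ end, the next in Eif4ebp2 after its leading one came from there, at chr10:61452548-61452576 on the minus strand, with 532 immunoprecipitate reads and 15 in untreated wild type. This sequence is shown because it is the only 5′ UTR sequence among the 5 leading 5′ ends of each gene.
Eif4ebp2 5′ UTR: Tgcacaaagcctcgagcccgcgtcggagc

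Within the 3′ UTR the reads were sparse next to the stop codon and dense further on. In the immunoprecipitate Abl2 had 16.6 rpm per kb in the first 250 nt after the stop codon and 534 between 2000 and 4000 nt. For Cbl the level was 2.69 in the first 250 nt, 159 between 2000 and 4000 nt and 268 beyond 4000 nt. In untreated wild type Cbl had no read in the first 250 nt, where 3 reads would have been 0.410 rpm. Tmem245 had 6.34, 52.8 and 223 in these windows, the last with its multi-gene stretch included. In the first 250 nt and between 2000 and 4000 nt, Rab11fip4 had 42.9 and 610, and Gabpb2 had 13.3 and 385.

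Eif4ebp2 and Fbxo41 showed a smaller step. Eif4ebp2 had 226 rpm per kb before the stop codon, 148 in the first 250 nt after it, 62.8 in the next 250 nt and 530 beyond 4000 nt. Fbxo41 had 95.6 in the last 500 nt before the stop codon, 76.2 in the first 250 nt after it and 636 between 1000 and 2000 nt. The first 20% of the 3′ UTR held between 2.59% (Cbl) and 9.69% (Gabpb2) of the 3′ UTR reads in untreated wild type. In the Hen1 knockout this range was 2.58% to 9.05%.

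**Figure D3:**
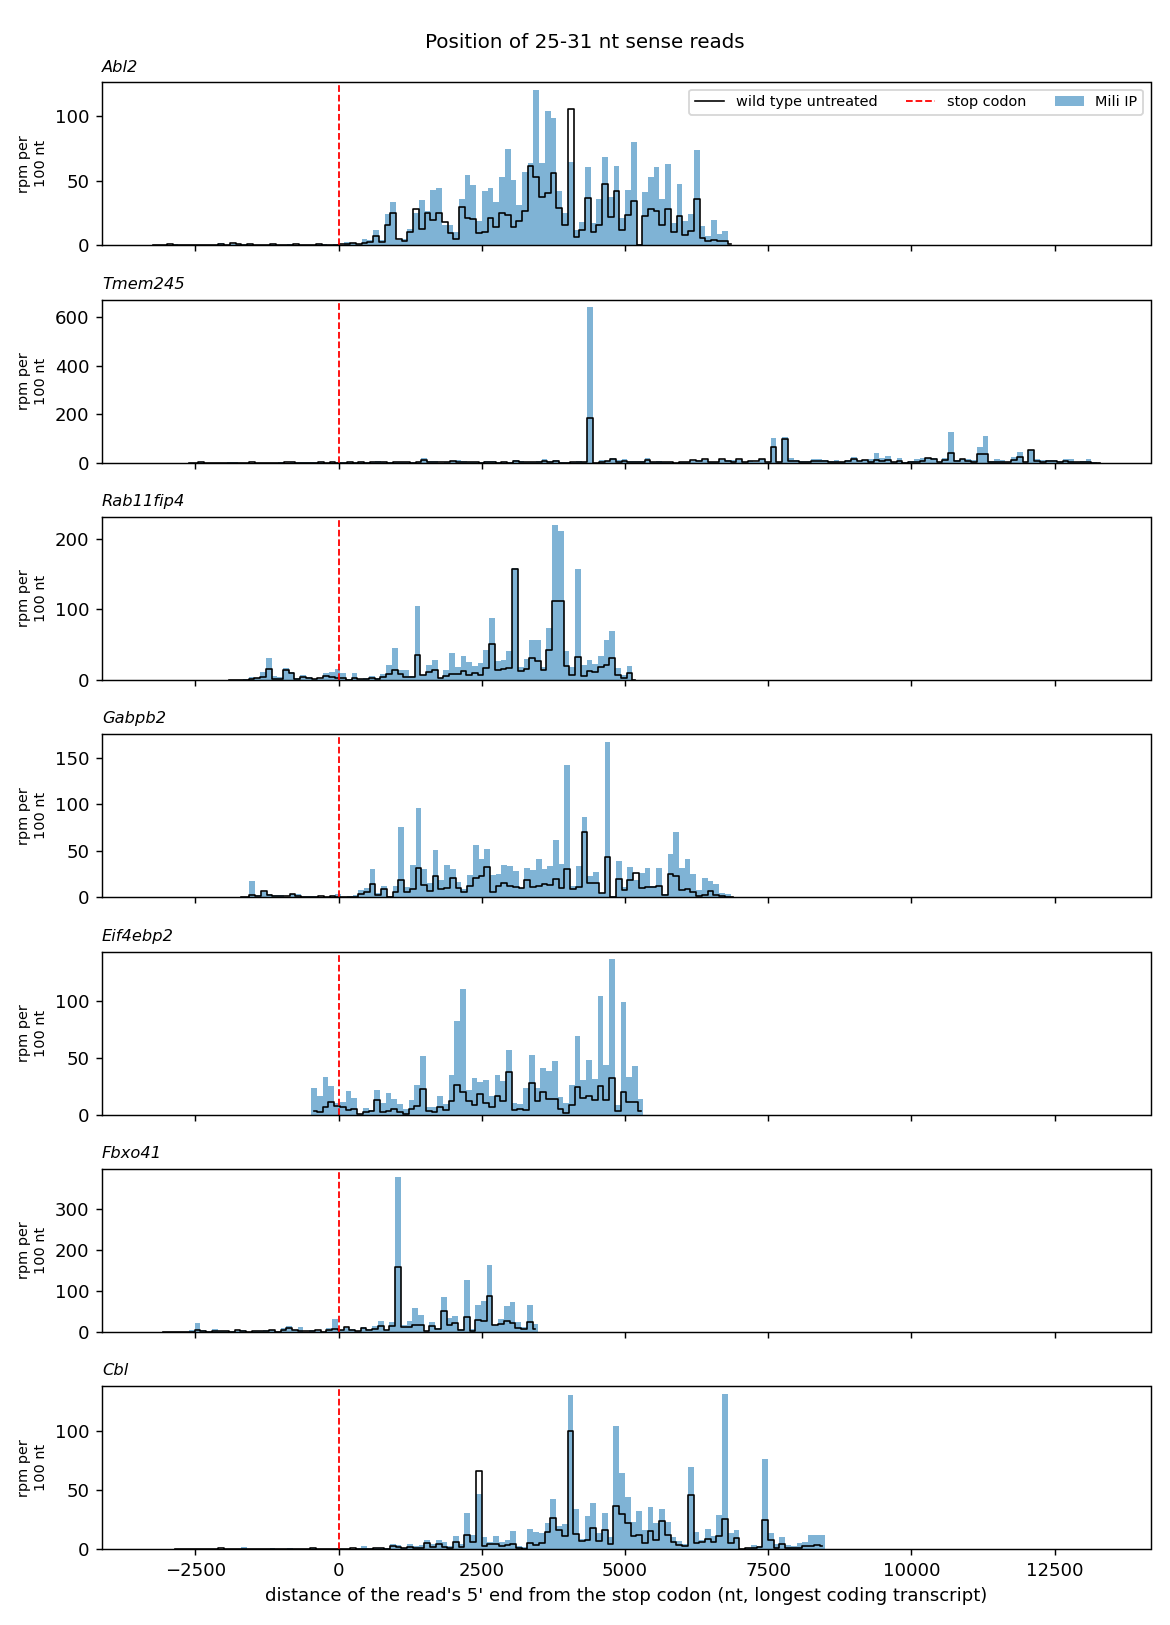
The rpm per 100 nt against the distance of the read's 5′ end from the stop codon, for the immunoprecipitate (bars) and untreated wild type (line), with 1 panel and its own scale per gene. Reads begin mainly past the stop codon (dashed line), and the tall peak of Tmem245 near 4414 nt is the stretch of uncertain origin.

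The reads formed many 5′ ends of unequal height. In the immunoprecipitate Abl2 had 2674 different 5′ ends, of which 86 held 50% of the reads, and its highest end held 3.83%. Fbxo41 was more uneven, with 28 ends holding 50% of the reads and 11.9% at the highest. Tmem245 had 20.1% at its highest end, in the stretch of uncertain origin. Eif4ebp2 was the most even in untreated wild type, with 2.50% at its highest end. The 10 highest ends held 15.8% (Eif4ebp2) to 37.7% (Tmem245) of the immunoprecipitate reads.

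The same ends tended to be high in different libraries. Of the 10 highest ends in the immunoprecipitate, between 6 (Abl2, Eif4ebp2) and 8 (Tmem245) were among the 10 highest in untreated wild type. In the untreated Hen1 knockout the number ran from 3 (Rab11fip4) to 7 (Tmem245). Over ends with at least 10 immunoprecipitate reads, Pearson's r of log2(reads + 0.5) between untreated wild type and the immunoprecipitate was 0.673 (Cbl, 558 ends) to 0.732 (Rab11fip4, 570 ends). Between untreated wild type and the Hen1 knockout it was 0.548 (Cbl) to 0.630 (Abl2). These values are across ends of 1 transcript, which share their library and depth, and they are given as a description.

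First bases were nearly uniform. T began 88.5% (88.3 to 88.8) of the members' reads in untreated wild type, 90.9% in the immunoprecipitate, 89.7% in the untreated Hen1 knockout and 90.3% in the Hen1 knockout after NaIO4. The T content of the 3′ UTRs was 23.6% (Fbxo41) to 31.8% (Cbl). Per gene the share in untreated wild type ran from 86.1% (Fbxo41) to 90.3% (Cbl). The median was 87.0% over 1130 genes with at least 1000 immunoprecipitate reads. A at position 10, the mark of the ping-pong cycle in which piRNAs of opposite strands cut each other's precursors, was found in 25.9% of reads in untreated wild type. The A content of the 3′ UTRs was 20.9% (Eif4ebp2) to 27.5% (Gabpb2). Gabpb2 had the most A at position 10, at 32.4%, and Fbxo41 the least, at 20.8%, beside a median of 28.3% over the same 1130 genes.

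Antisense reads were few: 20 over the 7 genes in untreated wild type and 61 in the immunoprecipitate, against 48327 and 357135 sense reads. Overlaps of sense and antisense 5′ ends were not tallied for so few reads. Spacing along the sense strand showed little order. Pairs of a 3′ end and a 5′ end on the next base, each weighted by the smaller of the 2 read counts, were 1.09 times the mean over distances of 2 to 50 nt in untreated wild type and 1.11 times in the immunoprecipitate. The gene medians over all genes compared, limited to those with at least 1000 immunoprecipitate reads, were 1.09 and 1.15. The base after the 3′ end was T for 29.7% of reads in untreated wild type, beside 30.4% for the median member. By contrast, pairs of 5′ ends 1 nt apart, weighted alike, were 2.36 times the mean of those 20 to 60 nt apart in untreated wild type.

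The members' piRNAs were shorter without Hen1. Their mean length was 27.9 nt in untreated wild type, 27.9 nt in wild type after NaIO4 and 27.9 nt in the immunoprecipitate, but 26.9 nt in the Hen1 knockout with and without NaIO4. Reads of 25 nt made up 3.98% in untreated wild type and 15.5% in the untreated Hen1 knockout, whereas reads of 30 nt made up 10.8% and 4.43%. The mean was lower in the knockout for all 7 genes, with 27.8 and 26.7 nt for Abl2 and 28.0 and 27.2 nt for Fbxo41. Neither mean lengths nor shared 5′ ends in the Hen1 knockout were compared over other genes. Whether the shift is particular to the members was not tested. For reads of 18 to 24 nt, the ratio of untreated Hen1 knockout to untreated wild type was 2.75 over the 7 genes. The median over 1257 genes was 2.08, with the middle 50% from 1.35 to 3.04. At 132 5′ ends with at least 50 reads in both libraries, the mean templated length was shorter in the Hen1 knockout at 120, with a median difference of -0.92 nt. Cbl (13 of 13 ends, median -1.60 nt) and Gabpb2 (15 of 15, median -0.90 nt) had no end that went the other way. After NaIO4 in wild type, 61 of 139 such ends were shorter and 78 longer, with a median difference of 0.019 nt.

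The ratio of the Hen1 knockout to wild type depended on length. Summed over the 7 genes it was 0.596 at 18 nt, 6.62 (6.14 to 7.15) at 24 nt, 2.99 at 26 nt, 1.04 at 28 nt and 0.430 (0.407 to 0.454) at 31 nt. Single sequences varied around this. One of 29 nt in Rab11fip4 stood at 47.3 rpm in untreated wild type and 7.86 in the untreated Hen1 knockout, and the leading Abl2 sequence of 26 nt at 27.5 and 52.5. One of 30 nt in Fbxo41 went the other way from the sum at that length, with 14.2 and 27.2. These 2 longer sequences, chosen after their values were seen, are shown as the opposite cases.
Rab11fip4, 29 nt: Tgacttggaccctgacagaacgtacttgc
Fbxo41, 30 nt: Ttgaatgcagaacacaggcaataagctgtc

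The NaIO4 ratio in the Hen1 knockout changed with length as well. Between 24 and 31 nt it ran from 0.213 to 0.299, but it was 0.773 at 23 nt, 1.00 at 22 nt, 1.79 at 21 nt and 5.80 (4.95 to 6.81) at 18 nt. In wild type the ratio went the other way up to 25 nt, from 1.17 at 18 nt to 2.00 at 25 nt. It was lower again at 1.76 at 30 nt and 1.81 at 31 nt. For reads of 18 to 24 nt the ratio in the knockout was 0.917 over the 7 genes, with Cbl at 1.31, Abl2 at 1.16 and Rab11fip4 at 0.518. The median over 1257 genes was 0.963, with the middle 50% from 0.642 to 1.44. Rab11fip4 and Eif4ebp2 (0.632) lay below that range and the other 5 within it.

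**Figure D4:**
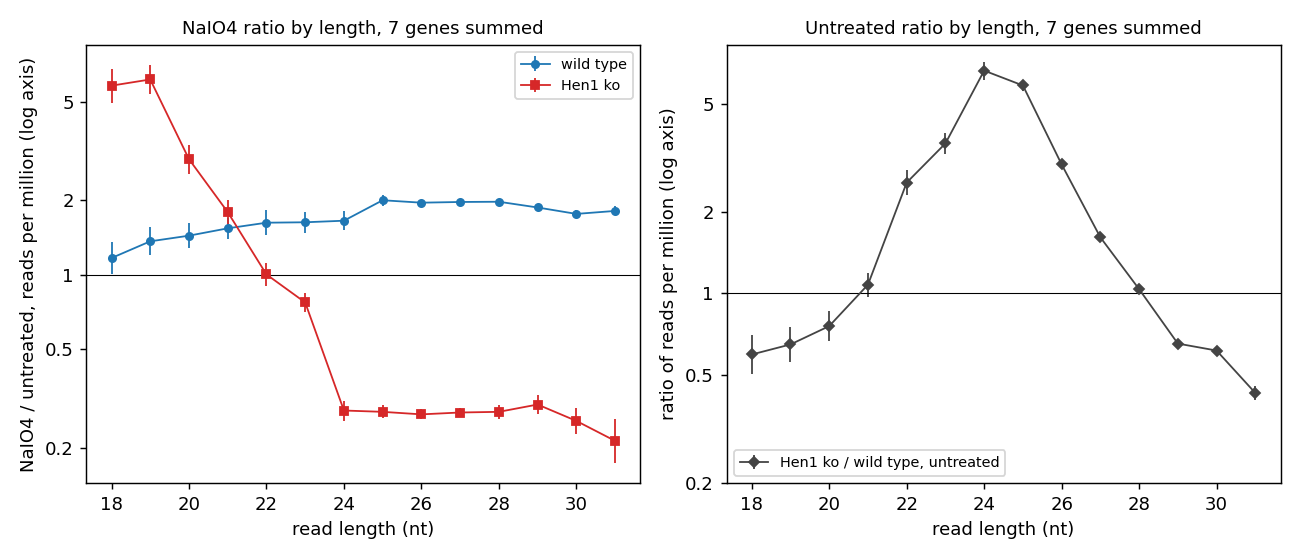
Ratios between libraries by read length for the 7 genes summed, with 95% intervals for counting error, on log axes. Left, NaIO4 to untreated in both genotypes, where the knockout drops below 0.3 from 24 nt on; right, untreated Hen1 knockout to untreated wild type, which peaks at 6.62 at 24 nt.

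Bases not encoded in the transcript were more frequent at 3′ ends in the Hen1 knockout. Over the 7 genes, 5.96% (5.76 to 6.16) of reads in untreated wild type carried 1 to 3 such bases, against 16.9% (16.7 to 17.1) in the untreated Hen1 knockout. The share was 4.75% in wild type after NaIO4, 14.0% in the Hen1 knockout after NaIO4 and 4.16% in the immunoprecipitate. Rab11fip4 had 6.22% and 20.8% in these untreated libraries and Gabpb2 had 5.54% and 19.3%, while Tmem245 had the smallest share in the untreated Hen1 knockout at 14.1%. In none of the 7 genes did the interval in the untreated Hen1 knockout reach that in untreated wild type. Tails were not tallied over other genes, so whether this is particular to the members was not tested. Of the tails of 1 base, T made up 71.5% in untreated wild type and 63.1% in the untreated Hen1 knockout. Tails of a single A were found on 1.02% of reads in untreated wild type and 3.93% in the untreated Hen1 knockout.

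**Figure D5:**
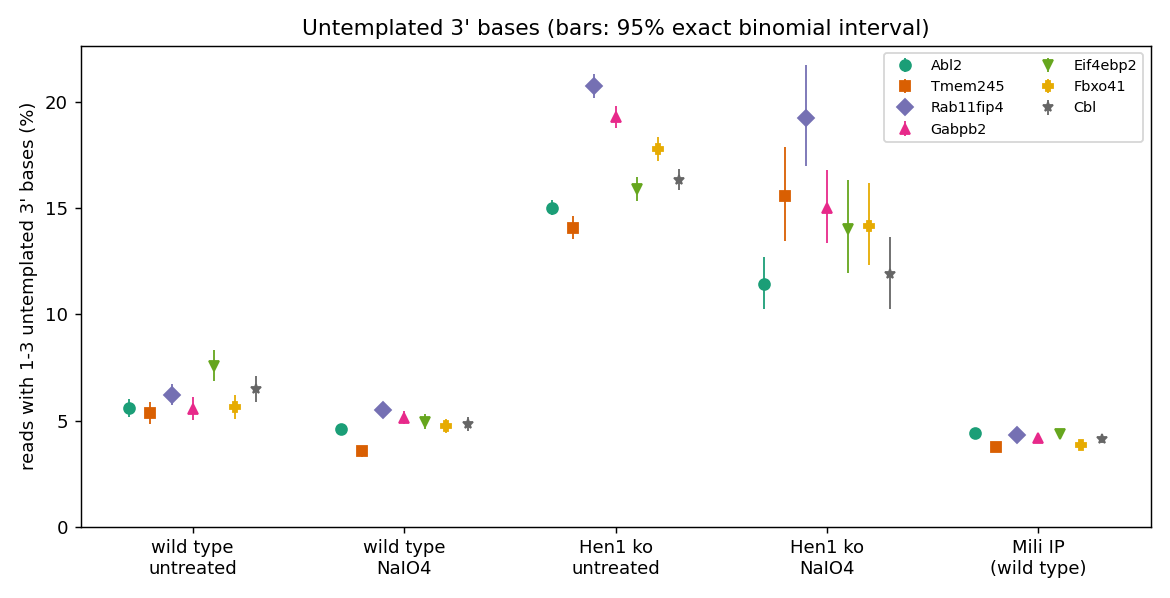
Share of reads with 1 to 3 untemplated 3′ bases for each gene (symbols, 95% exact binomial intervals) in 5 libraries, on an axis that starts at 0. All 7 genes sit between 14.1% and 20.8% in the untreated Hen1 knockout and at or below 7.57% in both wild type libraries and the immunoprecipitate.

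The forms at the leading 5′ ends differed between the libraries in length and in untemplated bases. At the Fbxo41 end, 27 nt was the most frequent form in untreated wild type with 320 of 618 reads. In the untreated Hen1 knockout the forms of 27 and 26 nt were level, with 230 and 225 of 663 reads, and 29 reads were the 26 nt form with an untemplated A. Capitals now mark untemplated bases.
Fbxo41, 27 nt: taaccgaattcctctgctcagaacgtg
Fbxo41, 26 nt: taaccgaattcctctgctcagaacgt
Fbxo41, 26 nt with A: taaccgaattcctctgctcagaacgtA

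At the Abl2 end the 26 nt form made up 74.7% of reads in untreated wild type and 60.2% in the untreated Hen1 knockout. There 135 of 1020 reads carried 1 untemplated T after 26 nt, and tailed reads of any kind were 19.4%, against 2.23% in untreated wild type. Rab11fip4 was the most uniform: 659 of 665 reads at its leading end were the single form of 27 nt in untreated wild type, and still 91.5% in the untreated Hen1 knockout. Eif4ebp2 had a pair of forms in the immunoprecipitate, of 29 nt with 835 reads and of 26 nt with 823, while the 26 nt form led in untreated wild type with 50 of 72 reads.
Abl2, 26 nt with T: tagagatctgcactttgtagttgaagT
Eif4ebp2, 26 nt: tcactgaacagcggtctgcacagagc

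Close relatives of the members gave far fewer piRNA-like reads. The list held 12 genes, and its immunoprecipitate reads ran from 1 (Cblc) to 2358 (Abl1), with a median of 442. Abl1, the other Abl kinase, had 25.9-fold fewer reads than Abl2, Rab11fip1 had 28.9-fold fewer than Rab11fip4, and Gabpb1, the other beta subunit, had 41.0-fold fewer than Gabpb2. Eif4ebp1 had 591 reads, 77.6-fold fewer than Eif4ebp2, and Cblb had 382, 104-fold fewer than Cbl. The partners Gabpa and Eif4e had 444 and 260. Since the members were picked for their reads, this contrast is a description. The relatives were not poor sources as a set. Of the 12, 4 had at least 1000 immunoprecipitate reads, against 1827 of the 16136 protein-coding genes with at least 1. Among protein-coding genes Abl1 ranked 771 and Cblc, the lowest relative, 15687.

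Genes with profiles most like the members' median over the 5 other libraries, each relative to untreated wild type on the log2 scale, were Elovl6, an enzyme that elongates fatty acids, at a distance of 0.18, and Ago1, an Argonaute protein, at 0.30. They came from 1223 genes with at least 1000 immunoprecipitate and 200 untreated wild type reads. Elovl6 had 6467 immunoprecipitate reads and none in the Mili knockout, and Ago1 had 6714 and none. For the distance 0.5 was added to each count, which sets the Mili knockout value of genes without a read there. The members themselves lay 0.517 (Eif4ebp2) to 1.91 (Abl2) from their median, so closeness to it is not closeness to each member.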

How the data were processed

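The files list each distinct small RNA sequence with its read count in 1 library, as deposited by the authors; per the labels' protocols, libraries were made from 0.5 µg RNA and sequenced on a HiSeq2500 for 50 cycles. The submitters' processing notes name Bowtie and mm10; how adapters were trimmed is not given in the sources used here. Errors in trimming would move lengths and tails. Sequences of 18 to 31 nt were matched exactly, on both strands, to all GENCODE M21 transcripts with Python 3.11.15, numpy 2.4.6 and numba 0.67.0; no genome sequence was used, so introns and unannotated copies were not seen. A read counted for a gene if it matched that gene alone. Positions are on the longest coding transcript, by 5′ end. Levels are per 1000000 reads of 18 to 35 nt (rpm), with exact Poisson intervals; shares have exact Clopper-Pearson intervals; ratios have exact conditional binomial intervals, and ratios of ratios log-scale intervals from the counts (95%, scipy 1.17.1). Tails are 1 to 3 bases after at least 21 templated nt at 5′ ends whose first 20 nt lie in 1 gene; this leaves out the leading end of Tmem245. Backgrounds used genes with at least 200 reads in the library that served as reference. Those for regions, bases and spacing were also limited to genes with at least 1000 immunoprecipitate reads. Matching and intervals were tested on simulated data.

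Named genes were the 7 members, a list of close relatives, the 3 nearest profiles and the gene just outside the pick; 1 gene that met the rule is not reported here. Members and lists were chosen with earlier results of these data known. Alternatives were other denominators, distinct sequences, reads of several genes split, up to 1 mismatch, and leaving out leading or antisense-matching sequences; leaving out reads within 1 mismatch of another gene and widening to 18 to 31 nt were chosen after seeing the data. Depth ran from 2604390 to 25240941 reads of 18 to 35 nt, so that 3 reads corresponded to 0.119 to 1.15 rpm.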

Additional observations from a re-analysis of the deposited data

Results flagged for a closer look

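For all 7 genes and their sum, the NaIO4 ratio was above 1 in wild type and below 1 in the Hen1 knockout. With 1 library per group this difference was not tested. The ratio in the Hen1 knockout over that in wild type was 0.144 for the sum, 0.1495 for Abl2, 0.143 for Tmem245, 0.130 for Rab11fip4, 0.151 for Gabpb2, 0.131 for Eif4ebp2, 0.154 for Fbxo41 and 0.134 for Cbl.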

How the results depend on the processing

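No paired analysis was possible because each group had 1 library and no test was run. Each group also lacked a replicate that could be left out. The values for the 7 genes summed follow in the order NaIO4 in wild type, NaIO4 in the Hen1 knockout, ratio of the 2, untreated Hen1 knockout, Mili knockout and immunoprecipitate, the last 3 over untreated wild type. Per microRNA read, a count that itself differed between the libraries, they were 25.851, 0.83677, 0.032369, 3.9406, 5.154e-04 and 49.018. Per piRNA-like read they were 1.2384, 0.70258, 0.56733, 1.0624, 0.0029544 and 1.2288. With each distinct sequence counted once they were 1.0491, 1.0250, 0.97701, 0.82458, 0.0086545 and 0.62376, so that the NaIO4 ratio in the Hen1 knockout, the Hen1 knockout ratio and the immunoprecipitate ratio reversed. With up to 1 mismatch they were 1.8783, 0.27786, 0.14793, 1.6373, 0.022147 and 2.0993, and with reads of 18 to 31 nt, an alternative chosen after seeing the data, 1.8927, 0.35065, 0.18526, 1.5824, 0.0017058 and 2.2488. The Hen1 knockout and immunoprecipitate ratios were 1.5336 and 2.0959 without the leading sequences, and 1.5196 and 2.1077 without reads within 1 mismatch of another gene, also chosen after seeing the data.

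For single genes, the untreated Hen1 knockout ratio reversed per piRNA-like read for Tmem245 (0.81667), Rab11fip4 (0.73261) and Fbxo41 (0.97553). Counting distinct sequences once reversed NaIO4 in wild type for Rab11fip4 (0.96928) and Fbxo41 (0.95548), and NaIO4 in the Hen1 knockout for Abl2 (1.1930), Gabpb2 (1.0915) and Fbxo41 (1.0363). The ratio of ratios reversed for Abl2 (1.1659) and Fbxo41 (1.0845). The Hen1 knockout ratio became 0.82476 for Abl2, 0.76179 for Tmem245, 0.69422 for Rab11fip4, 0.90841 for Gabpb2, 0.81805 for Eif4ebp2 and 0.75587 for Fbxo41. The immunoprecipitate ratio became 0.54290, 0.65157, 0.58072, 0.67938, 0.69893, 0.56118 and 0.68067 for Abl2, Tmem245, Rab11fip4, Gabpb2, Eif4ebp2, Fbxo41 and Cbl. Distinct sequences depend on depth, and the cause of these changes was not tested. Of the 378 single-gene values, 211 moved by less than their interval, 144 moved by more and 23 reversed.

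The 3′ UTR share was 94.724% in untreated wild type and 92.902% in the immunoprecipitate over distinct sequences, and 96.290% and 96.327% with genes weighted equally. In the immunoprecipitate it was 96.257% without the leading sequences, 96.586% with 1 mismatch and 96.306% without near copies. The share beginning with T was 79.573% and 68.738% over distinct sequences, 88.060% and 90.341% without the leading sequences, and 87.440% and 90.424% with 1 mismatch. Without near copies it was 90.778% in the immunoprecipitate.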

Other observations

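Abl2 reads carried a second base at fixed places. At 16 positions of its 3′ UTR, counted from 1 at the 5′ end of the transcript, between 22.4% and 80.0% of the immunoprecipitate reads that covered the position had the same other base. Examples are C5590T (552 of 1100 reads), G7109A (864 of 1664) and T6492C (1163 of 1453). In untreated wild type the same changes were in 36 of 81, 97 of 188 and 123 of 177 reads, and in the untreated Hen1 knockout T6492C was in 674 of 927. The growth protocol names an F1 of C57BL/6 and DBA2 while the strain label reads C57BL/6 alone. DBA2 sequence was not used here, and the source of these bases was not tested. The exact match used in the report leaves such reads out, and reads of Abl2 with 1 mismatch came to 15.0% of its exact reads in the immunoprecipitate.

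Rab11fip4, Eif4ebp2, Fbxo41 and Cbl had no such position, and their reads with 1 mismatch came to 4.595% to 5.22% of the exact ones in the immunoprecipitate. Gabpb2, at 14.7%, had 1 such change, G6571T, in 270 of 270 reads. Tmem245, at 15.2%, had 14 such changes, of which 9 lay between positions 7035 and 7165 in or beside the stretch of uncertain origin. The change A12108G was in 591 of 657 immunoprecipitate reads and C12183T in 381 of 733. The reads with 1 mismatch counted for Tmem245 were the only sizeable ones of the 7 genes in the Mili knockout, at 745, against 0 to 10 for the other 6. Of these, 200 carried A12108G, a position with 0 exact reads in that library. Reads with 1 mismatch were not searched against genes outside the 7. Whether those counted for a member come from it was not tested.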
